A study of Mus musculus with 85 samples.

Results

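The proliferation and mitosis genes are 40 genes with which mouse cells copy their DNA and divide. They were listed by name for their function and not by a measured value, though with earlier results of these data known. All 40 were found among the 23608 genes of an RNA-seq series of 85 libraries in 30 groups. The series asked how natural genetic variation between inbred strains acts on Kupffer cells, the macrophages of the liver sinusoids. By role, 8 members license replication origins (Mcm2 to Mcm7, Cdc6, Cdt1), 5 supply DNA precursors or the replication clamp (Rrm1, Rrm2, Tyms, Tk1, Pcna) and 2 are G1/S cyclins (Ccne1, Ccne2). A further 7 are mitotic cyclins and kinases (Ccna2, Ccnb1, Ccnb2, Cdk1, Aurka, Aurkb, Plk1). Of the others, 5 belong to the spindle checkpoint, the anaphase promoting machinery or the passenger complex (Bub1, Bub1b, Cdc20, Ube2c, Birc5), 6 are spindle motors and microtubule proteins (Kif11, Kif20a, Kif23, Tpx2, Prc1, Nusap1), 3 are centromere proteins (Cenpa, Cenpe, Cenpf), and 4 are chromosome or general growth markers (Mki67, Top2a, Hmgb2, Stmn1).

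The mice were males of the A/J, the BALB/cJ and the C57BL/6J strain and of CB6F1/J, the hybrid of the last pair, 8 to 12 weeks old by the study's methods. Graft-derived Kupffer cells came from NSG hosts, which are NOD scid mice with a null Il2rg gene that lack lymphocytes of their own but keep their own stromal and parenchymal liver cells. The hosts were conditioned with busulfan and given lineage-negative marrow cells of BALB/cJ (3 libraries), C57BL/6J (3) or CB6F1/J (3) donors. Livers were taken 4 months later, and in the inbred grafts donor cells were sorted by their MHC haplotype. Graft and resident Kupffer cells thus differ at once in host, conditioning, marrow origin and sorting, and these effects cannot be told apart. AMLN Kupffer cells came from A/J (4), BALB/cJ (3) and C57BL/6J (4) mice after 30 weeks on a diet with added cholesterol, fat and fructose. The labels give the controls as Control alone, with no diet, while the study's text speaks of a control diet, so the effects of age and of diet cannot be told apart. The methods call the C57BL/6 mice of the diet work maintained in the laboratory where the labels say C57BL/6J. LPS Kupffer cells came from fasted BALB/cJ (2), C57BL/6J (2) and CB6F1/J (5) mice 2 h after 0.1 mg/kg lipopolysaccharide, a bacterial toxin that activates macrophages; the methods name fasted littermates with no injection as controls, and the labels give each genotype 1 control group. Bone marrow-derived macrophages (BMDMs) of all 4 genotypes, grown in M-CSF, had 2 h of the endotoxin Kdo2-lipid A (KLA, 100 ng/ml; 2 libraries each) or PBS (2 each). Liver sinusoidal endothelial cells (LSECs; 4 A/J, 4 BALB/cJ, 4 C57BL/6J), stellate cells (4, 4 and 3 in that order) and hepatocytes (2, 2 and 3) were taken from mice labelled Control, called untreated here, as were the reference Kupffer cells (2 for each inbred strain and 4 for CB6F1/J). Livers were digested with the transcription inhibitor flavopiridol, a step not stated for BMDMs. The labels do not say that each library is a separate animal or culture, so the spread that p-values rest on is that of libraries and may be technical.

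Library totals were 5.25 M to 42.78 M counts in the 69 inbred libraries and 55.35 M to 158.29 M mapped reads in the 16 hybrid ones. The sorted cells held their own markers. Summed over 6 genes each, LSEC libraries had 9351 to 12486 TPM of LSEC markers, stellate libraries 14291 to 31674 TPM of stellate markers, and hepatocyte libraries 80486 to 133003 TPM of hepatocyte markers. Untreated inbred Kupffer libraries had 13616 to 15523 TPM of Kupffer markers (Clec4f, Timd4, Vsig4, Cd5l, Marco, Adgre1). The same Kupffer markers summed to 224 to 415 TPM in PBS-treated BMDMs, 6.52 to 190.2 TPM in LSECs, 16.6 to 41.6 TPM in hepatocytes and 165 to 6020 TPM in stellate libraries. The highest of these, 1971 to 6020 TPM, were in the 4 A/J stellate libraries.

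A cell that enters division first loads the MCM helicase onto replication origins, a step that needs CDC6 and CDT1, then makes nucleotides and copies its DNA with the PCNA clamp, and later condenses, aligns and separates its chromosomes under cyclin B, CDK1 and the aurora and polo-like kinases. The early genes are known targets of E2F transcription factors, and the late genes of a repressing complex that acts through the CHR element and hands over to B-MYB and FOXM1, usually together with CCAAT boxes bound by NF-Y. In healthy adult liver, resident Kupffer cells renew themselves locally and few of them divide at any time, whereas marrow-derived macrophages multiply in culture with M-CSF. A lower level in bulk RNA can mean fewer dividing cells or less RNA in each, and these cannot be told apart here.

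The letters of the promoters differed between the early and the late members. Of the 40 members, 33 had a promoter in the RefSeq table of GRCm38.p6, taken as 250 bases before to 50 bases after the start. The CHR letters (TTTGAA or TTCGAA, both strands) were in 80.0% of 20 mitosis and chromosome members, 15.4% of 13 S-phase members and 19.4% of all 27025 promoters of this length. CCAAT (both strands) was in 90.0%, 61.5% and 37.9% of these sets in that order. Any of 4 E2F words (TTTGGCGC, TTTCCCGC, TTTCGCGC, TTTGCCGC, both strands) was in 5.0% of mitosis and chromosome members, 46.2% of S-phase members and 2.3% of all promoters. These matches are a description and not binding sites. Mcm5 and Mcm6, which encode subunits of the replicative helicase and were called higher after engraftment in both donor strains, are shown with Cdc20, an activator of the anaphase promoting complex, and Mki67, which encodes the proliferation marker Ki-67. Capitals mark the E2F words, CCAAT (or ATTGG) and CHR letters.
Mcm5 (chr8:75109259-75109558, plus strand): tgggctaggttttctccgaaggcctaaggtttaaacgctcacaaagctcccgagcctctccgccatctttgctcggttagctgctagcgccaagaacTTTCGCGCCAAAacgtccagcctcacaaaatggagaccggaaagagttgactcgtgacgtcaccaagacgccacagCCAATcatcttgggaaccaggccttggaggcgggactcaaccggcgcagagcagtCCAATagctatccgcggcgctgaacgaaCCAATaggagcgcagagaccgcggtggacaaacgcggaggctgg
Mcm6 (chr1:128359656-128359955, minus strand): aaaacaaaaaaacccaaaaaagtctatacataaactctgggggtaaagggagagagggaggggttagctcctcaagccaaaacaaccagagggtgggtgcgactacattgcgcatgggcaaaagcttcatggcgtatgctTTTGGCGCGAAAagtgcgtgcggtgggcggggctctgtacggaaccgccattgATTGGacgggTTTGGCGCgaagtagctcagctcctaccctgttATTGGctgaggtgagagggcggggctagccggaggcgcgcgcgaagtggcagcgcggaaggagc
Cdc20 (chr4:118437294-118437593, minus strand): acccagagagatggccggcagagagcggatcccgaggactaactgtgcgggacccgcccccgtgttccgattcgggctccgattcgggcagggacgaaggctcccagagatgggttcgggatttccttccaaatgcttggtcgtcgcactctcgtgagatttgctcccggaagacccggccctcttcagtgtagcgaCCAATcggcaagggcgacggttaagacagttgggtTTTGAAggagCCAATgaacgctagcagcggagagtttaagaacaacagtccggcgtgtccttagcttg
Mki67 (chr7:135716330-135716629, minus strand): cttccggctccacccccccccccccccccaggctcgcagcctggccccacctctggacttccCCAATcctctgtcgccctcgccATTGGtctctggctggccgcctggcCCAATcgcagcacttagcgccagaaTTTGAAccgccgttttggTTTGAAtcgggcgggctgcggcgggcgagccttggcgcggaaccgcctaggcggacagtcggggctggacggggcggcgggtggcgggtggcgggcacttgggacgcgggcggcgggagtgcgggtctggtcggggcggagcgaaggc
The Mcm5 and Mcm6 windows held E2F words and CCAAT but no CHR letters, and the Cdc20 and Mki67 windows held CHR letters and CCAAT but no E2F word.

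Untreated Kupffer cells had low levels of most members, and cultured macrophages of the same strains had far higher levels of all of them. Summed over the 40 members, PBS-treated BMDMs had 2024, 2719 and 3324 TPM (lowest, median and highest of 6 libraries), against 179, 238 and 290 TPM in the 6 untreated Kupffer libraries. The 2 sets did not overlap, and the ratio of the sums was 11.4 ± 1.7 (SD over 3 strains; A/J 13.4, BALB/cJ 11, C57BL/6J 10.0). The highest members of Kupffer cells were the clamp gene Pcna (mean 31.7 TPM), the thymidine kinase gene Tk1 (23.7 TPM), the centromeric histone gene Cenpa (18.2 TPM), Mcm3 (18.2 TPM) and Kif23 (17.2 TPM), which encodes a kinesin of the central spindle. In BMDMs the highest were Ube2c, the ubiquitin-conjugating enzyme of the anaphase promoting complex (209 TPM), Pcna (206 TPM), Mki67 (195 TPM) and Top2a, the topoisomerase of dividing cells (125 TPM). Members above 8 TPM numbered 36 to 40 in a BMDM library and 7 to 13 in a Kupffer library.

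**Figure D1:**
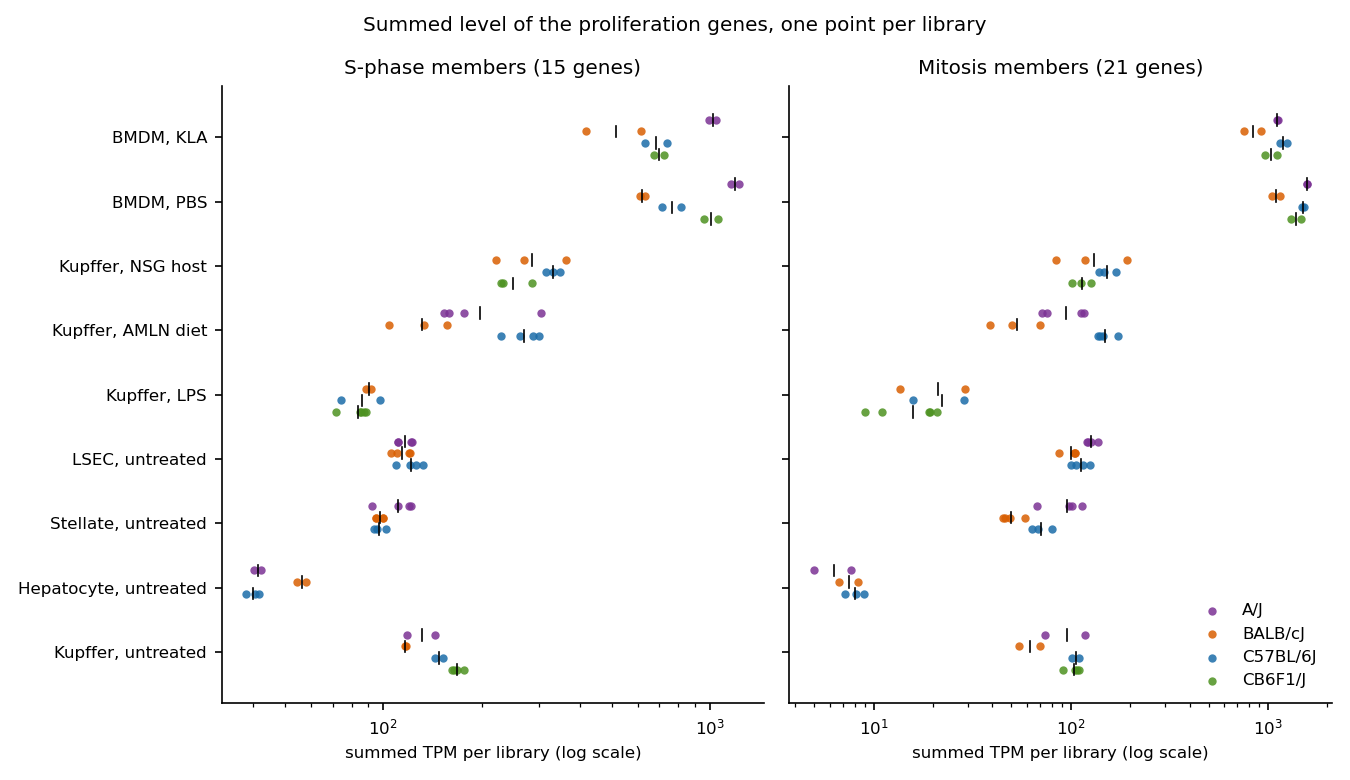
Summed TPM (log axis) of the 15 S-phase members and the 21 mitosis members in each library, by cell type and treatment; points are libraries, colours are strains or donors, and lines are group means. PBS-treated BMDM libraries sit at 610 to 1230 TPM for S-phase members and 1046 to 1583 TPM for mitosis members, all above the untreated Kupffer libraries at 117 to 152 and 54.8 to 118 TPM. Hybrid values come from separately normalized tables.

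All 40 members were called higher in BMDMs than in Kupffer cells by edgeR's quasi-likelihood test, as were 18.8% of all genes tested and 0 members and 19.8% of genes lower. A call needs a Benjamini-Hochberg adjusted p below 0.05 over all genes tested and a log2 fold change (log2FC) beyond 1 in size. The members' log2FC ran from 1.42 (Mcm3) to 5.68 (Ccnb1) with a median of 4.20, against 0.01 over all genes. The libraries of the 2 cell types did not overlap for any member, and 25.1% of all genes were higher without overlap. By role, the median log2FC was 2.58 for origin licensing, 2.90 for precursors and clamp, 3.32 for the G1/S cyclins, 4.40 for mitotic cyclins and kinases, 4.88 for checkpoint, anaphase and passenger genes, 4.57 for spindle genes, 4.19 for centromere genes and 4.55 for the chromosome group.

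Ccnb1, the cyclin that drives entry into mitosis, had 39.8 and 39.0 TPM in A/J, 28.8 and 29.4 TPM in BALB/cJ and 42.7 and 43.5 TPM in C57BL/6J BMDMs, against 0.709 and 1.34, 0.313 and 0.716, and 0.407 and 0.469 TPM in Kupffer cells of the same strains in the same order (log2FC 5.68 ± 0.21 SE, adjusted p = 1.2e-10). Mki67 had 227 and 204, 162 and 158, and 224 and 198 TPM in BMDMs of the 3 strains, against 5.72 and 11.6, 3.20 and 4.43, and 9.11 and 8.61 TPM in Kupffer cells (log2FC 4.72 ± 0.18 SE, adjusted p = 2.9e-10). Each BMDM library thus exceeded each Kupffer library for both genes. The smallest change was that of Mcm3, with 80.1 and 75.8, 38 and 39.4, and 50.4 and 54.4 TPM in BMDMs, against 17.2 and 19.5, 19 and 16.1, and 19 and 18.1 TPM in Kupffer cells. Of the other named members, log2FC was 5.53 for Stmn1 (stathmin, which destabilises microtubules), 5.29 for the checkpoint kinase gene Bub1, 5.15 for Birc5 (survivin), 5.12 for Nusap1, 4.88 for Ube2c and 4.74 for Ccne1 (cyclin E1). It was 4.38 for Top2a, 4.32 for Rrm2 (a ribonucleotide reductase subunit), 3.91 for the DNA-bending protein gene Hmgb2, 3.85 for Mcm5, 3.12 for Cdk1 and 2.51 for Pcna. Other cell cycle genes moved likewise: 31 of 32 other S-phase genes and 47 of 49 other mitosis genes were called higher. Among 21 tested cell cycle transcription factors, 9 were higher and 0 lower, with log2FC of 5.70 for E2f8, 5.39 for E2f7 and 4.40 for Foxm1. The CDK inhibitor gene Cdkn1a was also higher (4.13), and Csf1r, the receptor for M-CSF, was lower (log2FC -1.84). The flavopiridol digestion of liver cells and the culture cannot be told apart in this comparison.

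Within the liver, LSECs and stellate cells had lower levels of some members than Kupffer cells, and hepatocytes of most, with a few exceptions. These comparisons share the 6 Kupffer libraries with each other and with the BMDM comparison. In LSECs 1 member was called higher and 13 lower than in Kupffer cells, where 25.3% and 18% of all genes tested were called, and the members' median log2FC was -0.78 against 0.07 for all genes. Cenpa was the higher one, at 50.4, 62.5 and 108 TPM (lowest, median and highest of 12 LSEC libraries) against 15.3, 15.8 and 28.5 TPM in Kupffer cells, and the 2 sets did not overlap (log2FC 1.57 ± 0.20 SE, adjusted p = 9.5e-09). The largest decrease was in Kif23, at 0.608, 1.06 and 1.82 TPM in LSECs against 10.6, 16.3 and 24.6 TPM in Kupffer cells (log2FC -4.20 ± 0.37 SE, adjusted p = 3.3e-12). Cdt1 followed at 0.912, 1.77 and 2.51 TPM in LSECs against 10.9, 12.4 and 14.9 TPM in Kupffer cells (-3.25 ± 0.25 SE), again with no overlap. Tk1 (-3.05), the passenger kinase gene Aurkb (-2.62), Mki67 (-2.24), the centromere motor gene Cenpe (-1.98), Ccne1 (-1.82), Top2a (-1.57), Ccnb1 (-1.51) and Rrm2 (-1.48) were also lower. Uncalled were Pcna (-0.96), Cdk1 (-0.57), Stmn1 (0.75), Mcm5 (0.24) and Hmgb2 (0.20).

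In stellate cells 0 members were called higher and 9 lower than in Kupffer cells, of 24.4% and 14.6% of all genes, with a median log2FC of -0.53 against 0.08. Kif23 was at 0.808, 2.42 and 8.38 TPM in the 11 stellate libraries (-2.71 ± 0.36 SE), and Cdt1 at 1.36, 2.15 and 9.39 TPM (-2.34 ± 0.25 SE), both below every Kupffer library. Mki67 was at 0.577, 1.46 and 5.60 TPM in stellate cells against 3.20, 7.16 and 11.6 TPM in Kupffer cells, with overlap (-1.85 ± 0.33 SE, adjusted p = 9.2e-06). Ccnb1 (-1.07) lost its call without replicate 2 of A/J or BALB/cJ Kupffer cells, A/J stellate replicate 2 or BALB/cJ stellate replicate 1. The highest values of Kif23 and Mki67 were in A/J stellate libraries, which also held the most Kupffer marker RNA; the part of that RNA in these levels was not tested.

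Hepatocytes had the lowest member levels. The 40 members summed to 46.8, 51.1 and 67.2 TPM in 7 hepatocyte libraries, against 217, 240 and 266 TPM in LSECs, 146, 167 and 253 TPM in stellate cells and the Kupffer sums above. Of the members, 2 were called higher and 29 lower than in Kupffer cells (29% and 29.7% of all genes; median log2FC -2.04 against -0.02). By role the lower ones were all 6 spindle genes, all 3 centromere genes, 7 of 8 licensing genes and 6 of 7 mitotic cyclins and kinases, but 0 of 5 precursor and clamp genes, among others. Kif23 was at 0, 0.022 and 0.382 TPM in hepatocytes (log2FC -6.72 ± 0.57 SE, adjusted p = 1e-12), and Bub1 was at 0, 0 and 0.019 TPM against 0.263, 0.534 and 0.903 TPM in Kupffer cells (-4.84 ± 0.65 SE). Mki67 was at 0.138, 0.22 and 0.361 TPM (-3.78 ± 0.43 SE), below every Kupffer library. Ccne1 went the other way, at 2.14, 2.87 and 3.69 TPM in hepatocytes against 0.265, 0.362 and 0.760 TPM in Kupffer cells with no overlap (3.79 ± 0.33 SE, adjusted p = 1.6e-12). Tyms, which encodes thymidylate synthase, was called higher (1.15 ± 0.21 SE) although its levels overlapped, at 0.94, 1.38 and 1.66 TPM in hepatocytes against 0.707, 1.32 and 1.84 TPM in Kupffer cells. With library totals as the sole scaling it was 0.30 and uncalled, and 33 members were then lower and 1 higher, with the median of all genes at -0.84. In the same comparison 34 of 48 other mitosis genes were lower and 5 higher, while the origin factor gene Mcm10 (5.83) and Ung (3.59), which encodes a DNA repair glycosylase, were higher in hepatocytes.

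Which members were called between strains varied with the cell type, as did the number of libraries. The share of members called across the 3 strains was near that of all genes in Kupffer cells, BMDMs and hepatocytes. Their median log2 difference, BALB/cJ minus C57BL/6J, was -0.61, -0.40 and -0.22 in that order, against -0.002, 0.01 and -0.002 for all genes. For A/J minus BALB/cJ it was 0.58, 0.64 and 0.03, against 0.002, -0.02 and -0.002. Tested as a pair, BALB/cJ Kupffer cells had 0 members higher and 7 lower than C57BL/6J (9.16% of all genes in either direction). Mcm6 was called in Kupffer cells, LSECs, stellate cells and BMDMs. In untreated Kupffer cells 5 of 39 tested members were called across the 3 strains (11.7% of all genes). Mcm6 (gene at chr1:128331575-128359705, minus strand, GRCm38.p6) had 4.74 and 7.51 TPM in A/J, 1.40 and 1.32 TPM in BALB/cJ and 5.74 and 5.25 TPM in C57BL/6J Kupffer cells, with BALB/cJ below all others (BALB/cJ minus C57BL/6J -1.97 and A/J minus BALB/cJ 2.10 on the log2 scale; adjusted p = 8.9e-05 for the 3 strains). Tk1 had 15.8 and 21.4 TPM in A/J, 15.4 and 12.2 TPM in BALB/cJ and 39.5 and 38.1 TPM in C57BL/6J, which was the highest (A/J minus C57BL/6J -1.08, BALB/cJ minus C57BL/6J -1.45). Bub1b, Kif11 and Kif23 were lower in BALB/cJ, with BALB/cJ minus C57BL/6J at -2.02, -1.40 and -1.04 and, for Kif11, A/J minus BALB/cJ at 1.30. The count of 5 moved with single libraries. It was 14 when A/J replicate 1 was left out, 8 when A/J replicate 2 was, and 3 when BALB/cJ replicate 1 was, where Kif11 and Kif23 were lost.

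In LSECs Mcm6 had 9.76, 8.25, 8.18 and 7.37 TPM in A/J, 1.33, 1.51, 1.58 and 1.99 TPM in BALB/cJ and 8.83, 9.75, 8.93 and 9.75 TPM in C57BL/6J (BALB/cJ minus C57BL/6J -2.53, A/J minus BALB/cJ 2.44). In stellate cells it had 7.13, 5.47, 5.63 and 6.09 TPM in A/J, 1.07, 0.865, 1.02 and 0.849 TPM in BALB/cJ and 6.63, 7.02 and 5.55 TPM in C57BL/6J (-2.71 and 2.70). BALB/cJ was again apart from both other strains, with no overlap in either cell type. In BMDMs BALB/cJ was again the lowest, at 45.9 and 42.9 TPM, but closer to C57BL/6J, at 54.2 and 69.2 TPM. There A/J stood apart with 112 and 123 TPM, and the pair called was A/J minus BALB/cJ (1.36). In hepatocytes Mcm6 was uncalled, at 0.679 and 1.32 TPM in A/J, 0.177 and 0.484 TPM in BALB/cJ and 0.500, 0.784 and 0.579 TPM in C57BL/6J. Whether the strain difference differs between cell types was not tested.

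Other members differed in 1 cell type or in a few. LSECs had 5 of 37 tested members called (9.3% of all genes), and 9 without A/J replicate 1. Stmn1 had 7.94, 9.23, 6.92 and 4.91 TPM in A/J, 3.99, 5.14, 3.61 and 4.94 TPM in BALB/cJ and 0.825, 1.86, 1.38 and 1.86 TPM in C57BL/6J, the lowest (A/J minus C57BL/6J 2.34, BALB/cJ minus C57BL/6J 1.58). BMDMs had 6 of 40 (15.9% of all genes), all early genes and all highest in A/J, as were 3.42% of all genes. They were Ccne2 (A/J minus BALB/cJ 1.70), Cdc6 (1.64), Rrm2 (1.43), Ccne1 (1.41), Mcm6 and Mcm2. Rrm2 had 106 and 115 TPM in A/J, 41.7 and 37.7 TPM in BALB/cJ and 50.6 and 56.2 TPM in C57BL/6J BMDMs. Hepatocytes had 4 of 25 (12.7% of all genes). Mcm2 was at 0.351 and 0.991 TPM in A/J, 2.21 and 2.60 TPM in BALB/cJ and 0.464, 0.645 and 0.357 TPM in C57BL/6J (BALB/cJ minus C57BL/6J 2.17), and Rrm2 was highest in C57BL/6J (A/J minus C57BL/6J -3.14, BALB/cJ minus C57BL/6J -2.15). Without BALB/cJ hepatocyte replicate 2, Mcm2 and Mcm4 lost their calls and 2 members were called.

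Stellate cells had 13 of 38 tested members called (18.9% of all genes, and 8.33% with A/J the highest). For Kif23, Stmn1, Bub1, Mki67, Cdt1, Aurkb, Birc5, Top2a, Cenpa and Plk1 the pair called was A/J minus BALB/cJ, with A/J higher. Kif23 had 4.03, 1.90, 8.38 and 7.36 TPM in A/J, 0.986, 1.08, 1.29 and 0.808 TPM in BALB/cJ and 2.42, 3.19 and 3.38 TPM in C57BL/6J (A/J minus BALB/cJ 2.40). Mki67 had 3.08, 0.913, 5.23 and 5.60 TPM in A/J, 1.16, 0.968, 0.577 and 1.33 TPM in BALB/cJ and 1.75, 1.46 and 2.53 TPM in C57BL/6J (1.91), so A/J replicate 2 lay among the other strains. Beside this, all 6 Kupffer markers summed to 1971 to 6020 TPM in A/J, 165 to 699 TPM in BALB/cJ and 1166 to 1600 TPM in C57BL/6J stellate libraries, and their part in these differences was not tested. Some calls rested on single libraries. Mki67 lost its call without A/J replicate 3 or 4, Bub1 without BALB/cJ replicate 2, 3 or 4, Mcm5 without C57BL/6J replicate 2, and Top2a (1.58) when any 1 of 9 of the 11 libraries was left out.

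**Figure D2:**
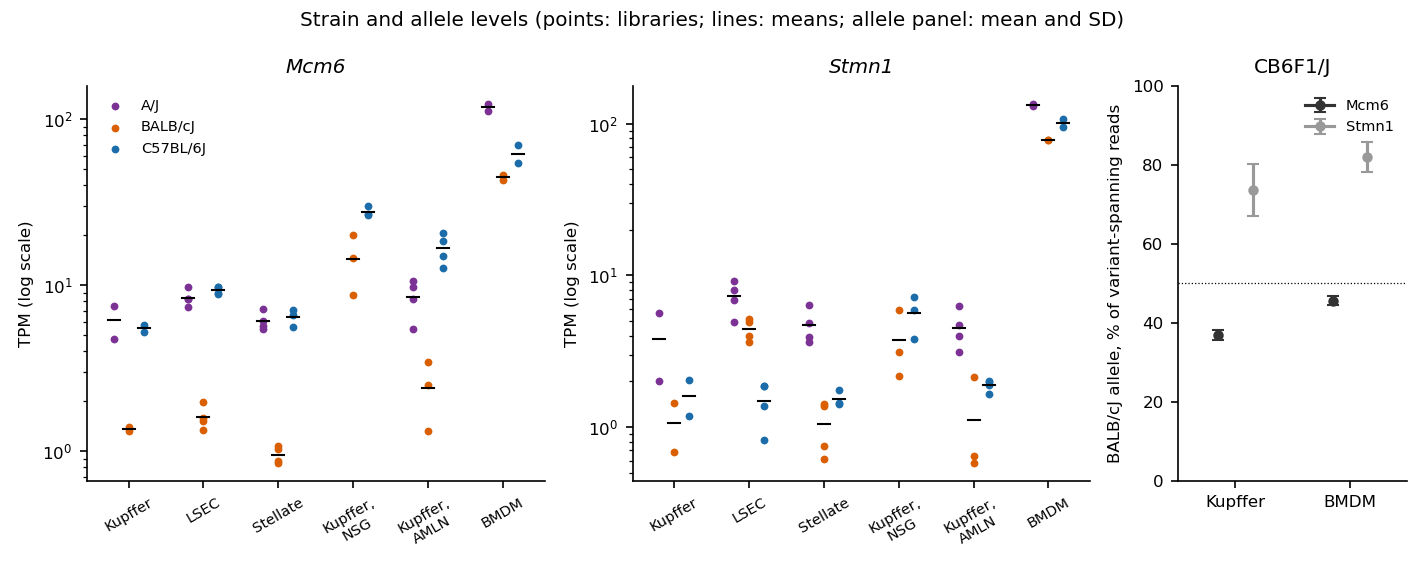
TPM (log axis) of Mcm6 and Stmn1 in each untreated or PBS-treated library by cell type and strain, and the percent of variant-spanning reads from the BALB/cJ allele in CB6F1 hybrids; points are libraries and colours are strains. BALB/cJ Kupffer, LSEC and stellate libraries have 0.849 to 1.99 TPM of Mcm6, below all A/J and C57BL/6J libraries of those cell types, and Stmn1 reads in the hybrid come mostly from the BALB/cJ allele.

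The CB6F1 hybrid carries both parental alleles in the same nucleus, so reads that span a variant tell them apart. Of the members with at least 10 such reads a library, 1 of 17 was called in Kupffer cells (6.42% of all genes) and 1 of 20 in BMDMs (6.69%), and it was Stmn1 (chr4:134468320-134473843, plus strand) in each. Tpx2, among those tested in BMDMs, had the same count for both alleles in each library (501 against 501 reads, 50%), so its test could not show a difference. The BALB/cJ allele gave 73.6 ± 6.6% of Stmn1 reads in Kupffer cells (SD, n = 4; 175 against 61 reads; log2 ratio 1.54 ± 0.21 SE, adjusted p = 0.0077) and 82.0 ± 3.7% in BMDMs (SD, n = 4 PBS and KLA libraries; 2765 against 563 reads; 2.31 ± 0.15 SE, adjusted p = 0.0011). Both ranges stayed above an even split, at 66.7 to 79.4% and 79.5 to 87.4%. In BALB/cJ against C57BL/6J parents Stmn1 was uncalled in BMDMs (-0.40). In parental Kupffer cells it was not among the members called either, at a mean of 1.07 TPM in BALB/cJ (SD 0.54) and 1.60 TPM in C57BL/6J (SD 0.61). Mcm6 gave 36.9 ± 1.2% of its reads from the BALB/cJ allele in Kupffer cells (881 against 1510 reads; log2 ratio -0.74 ± 0.04 SE, adjusted p = 0.00048) and 45.7 ± 1.2% in BMDMs (23128 against 27107 reads; -0.22, adjusted p = 0.0082), past the p threshold in each and under the fold limit. Bub1b gave 41.3 ± 2.3% in Kupffer cells (-0.48, adjusted p = 0.0087) and 49.6% in BMDMs. The difference between parental and allelic ratios was not tested. Without CB6F1 Kupffer control replicate 3, Ccne1 (1.99) was called as well.

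Kupffer cells that grew from grafted BALB/cJ or C57BL/6J marrow in NSG hosts had higher levels of most origin licensing genes than resident Kupffer cells of their donor strains. Fewer of these genes were called in CB6F1 grafts, which are described further below. The summed members had 322, 418 and 619 TPM in BALB/cJ grafts, against 179 and 198 TPM in BALB/cJ controls, and 508, 538 and 540 TPM in C57BL/6J grafts, against 271 and 272 TPM in C57BL/6J controls. In BALB/cJ 11 members were called higher and 0 lower (7.67% and 2.38% of all genes; median log2FC 1.28 against 0.00), and in C57BL/6J 20 were higher and 0 lower (11.4% and 3.07%; 1.03 against 0.01). By role the higher ones held 6 of 8 licensing genes in each donor, 1 of 5 precursor and clamp genes in BALB/cJ and 3 of 5 in C57BL/6J, 1 of 7 mitotic cyclins and kinases in each, and 0 of 3 centromere genes in each.

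Mcm5 had 19.9, 30.3 and 15.5 TPM in BALB/cJ grafts, against 2.29 and 2.75 TPM in controls (log2FC 3.07 ± 0.28 SE, adjusted p = 0.0003), and 20.3, 26.5 and 23.1 TPM in C57BL/6J grafts, against 3.52 and 3.25 TPM in controls (2.70 ± 0.18 SE, adjusted p = 1.3e-07). Mcm6 had 14.6, 19.9 and 8.72 TPM in BALB/cJ grafts, against 1.40 and 1.32 TPM in controls (3.34 ± 0.35 SE, adjusted p = 0.0011), and 26.5, 26.6 and 29.9 TPM in C57BL/6J grafts, against 5.74 and 5.25 TPM in controls (2.25 ± 0.13 SE, adjusted p = 4.5e-08). Every graft library lay above every control library of its strain for both genes. Mcm2 had 19.9, 25.4 and 16.3 TPM in BALB/cJ grafts, against 6.20 and 6.21 TPM in controls (1.67), and 18.7, 24.0 and 24.4 TPM in C57BL/6J grafts, against 4.52 and 6.17 TPM in controls (1.99). The loading factor gene Cdc6 was higher by 2.48 in BALB/cJ and 2.03 in C57BL/6J, and Mcm4 by 1.61 and 1.56 in that order. Ccne1 was called in both donors (3.06 and 2.39) at low levels, with 2.97, 4.35 and 0.669 TPM in BALB/cJ grafts, against 0.265 and 0.327 TPM in controls, and each call was lost without either control or without graft replicate 2 (in BALB/cJ also without graft replicate 1).

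More late members were called in C57BL/6J than in BALB/cJ grafts, and these counts moved with the fit. A fit over all inbred Kupffer libraries called 8 members in C57BL/6J, losing Mki67, Top2a, Ccnb1, Stmn1 and Ccne1, and DESeq2's test called 20 in BALB/cJ. Top2a had 21.9, 17.3 and 19.4 TPM in C57BL/6J grafts, against 6.34 and 5.96 TPM in controls (log2FC 1.59 ± 0.14 SE, adjusted p = 1.3e-06), and Mki67 had 25.6, 14.4 and 19.8 TPM, against 9.11 and 8.61 TPM (1.08 ± 0.20 SE, adjusted p = 0.0026). In BALB/cJ grafts the 3 libraries differed widely, with Top2a at 13.7, 30.5 and 5.83 TPM, against 2.44 and 4.63 TPM in controls (2.17, adjusted p = 0.20), and Mki67 at 13.7, 26.3 and 6.58 TPM, against 3.20 and 4.43 TPM (1.96, adjusted p = 0.16). Replicate 3 was the lowest graft library for both genes, and without it 29 members were called, Mki67 among them (2.35). In C57BL/6J 13 members were called without control replicate 2, and Mki67 fell under the fold limit (0.89) without graft replicate 1. Bub1 was called in both donors (2.25 and 1.55), in BALB/cJ not without control replicate 1, and Ube2c in both (2.13 and 1.20). Rrm2 was called in C57BL/6J grafts, at 14.2, 14.8 and 17.7 TPM against 4.51 and 4.27 TPM in controls (1.75), and uncalled in BALB/cJ, at 11.9, 22.7 and 5.23 TPM against 1.28 and 2.58 TPM (2.73, adjusted p = 0.071). In C57BL/6J, Stmn1 (1.71) and Ccnb1 (1.67) were called at low levels, Stmn1 not without control replicate 2 and Ccnb1 not without either control or graft replicate 1 or 2. Uncalled in both donors were Cdk1 (0.98 and 0.49), Pcna (0.67 and 0.84, adjusted p = 0.0071 and 0.00043) and Hmgb2 (0.30 and -0.68). The libraries of graft and control did not overlap for 32 of 40 members in BALB/cJ and 35 in C57BL/6J that were higher, where 25.1% and 30.4% of all genes tested did so.

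**Figure D3:**
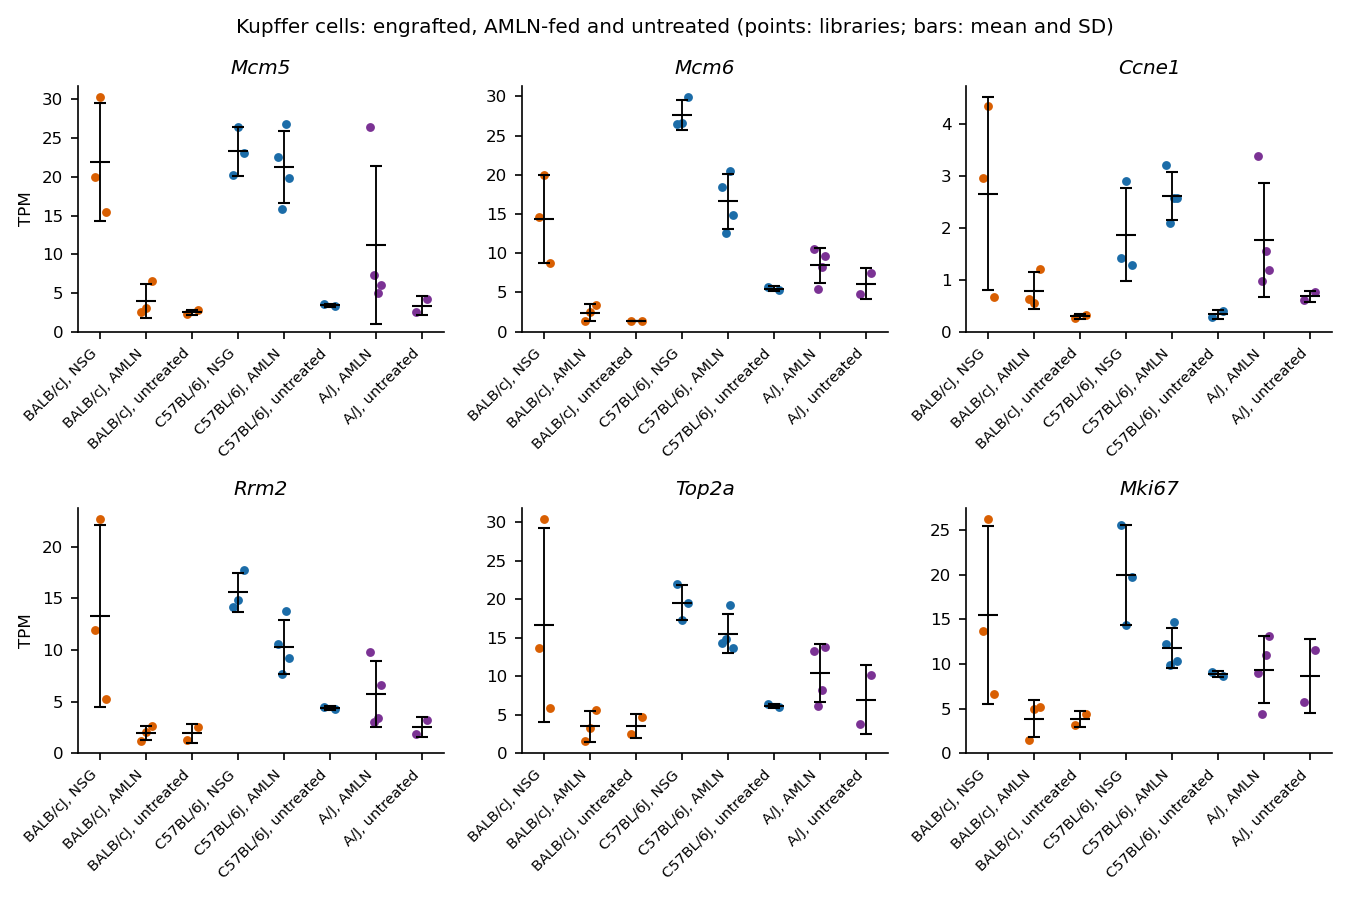
TPM of Mcm5, Mcm6, Ccne1, Rrm2, Top2a and Mki67 in Kupffer cells of NSG grafts, AMLN-fed mice and untreated controls by strain or donor; points are libraries, and bars give the mean and SD. Mcm5 is at 15.5 to 30.3 TPM in the 6 inbred grafts, 15.9 to 26.9 TPM in AMLN-fed C57BL/6J and 2.29 to 4.20 TPM in inbred controls.

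The test of the difference in change between the donors called 0 members (1.16% of all genes; 3 members had an unadjusted p under 0.05, and DESeq2 called 0). Kif23 passed its p threshold under the fold limit (0.85 ± 0.20 SE, adjusted p = 0.0444). For Mcm6 it was 1.07 ± 0.38 SE (adjusted p = 0.24), and 1 member was called without BALB/cJ graft replicate 3. Between BALB/cJ and C57BL/6J grafts in the same host type 0 members were called (5.05% of all genes; 2 with an unadjusted p under 0.05, and DESeq2 called 0). Mcm6 averaged 46.5 CPM in BALB/cJ and 85.8 CPM in C57BL/6J grafts, a log2 difference of -0.89 ± 0.23 SE (adjusted p = 0.045) under the fold limit. In CB6F1 grafts 5 of 18 tested members were higher and 0 lower (8.8% and 11.9% of all genes; median log2FC 0.95 against -0.03). Mcm6 had 12.3, 17.6 and 11.8 TPM there, against 4.44, 4.64, 4.63 and 4.16 TPM in CB6F1 controls (1.71 ± 0.16 SE, adjusted p = 5.9e-06), and Nusap1 had 4.37, 4.48 and 4.19 TPM, against 2.18, 1.88, 2.44 and 2.04 TPM (1.36). Ccne2 (1.96), Ccne1 (1.58) and Bub1 (1.04) were the others. With all mapped reads all 40 members were tested, and 7 were called higher and 0 lower, against 8.72% and 9.08% of all genes. The members' median log2FC was 0.63 against 0.01. Called were Mcm6 (1.73), Cdc6 (1.53), Mcm5 (1.27), Ccne1 (1.17), Nusap1 (1.12), Hmgb2 (1.11) and Mki67 (1.05). Ccne2 and Bub1 were uncalled there, as were Mcm2 (0.59), Mcm4 (0.59), Mcm7 (0.11) and Mcm3 (0.10). In that fit Plk1 (-0.63), Cenpa (-0.59) and Cdt1 (-0.44) passed the p threshold in the lower direction, under the fold limit. With variant-spanning reads the number called was 3 without control replicate 2 and 9 without graft replicate 1.

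Other cell cycle genes moved with the members in the grafts. Of the other S-phase genes 20 of 32 were higher in BALB/cJ and 16 of 32 in C57BL/6J, and of the other mitosis genes 14 of 46 and 13 of 45. Uhrf1, which maintains DNA methylation at replication, was higher by 3.36 and 2.88, the E2F gene E2f2 by 2.67 and 3.68, and the D cyclin gene Ccnd2 by 3.08 and 4.50. Markers of other blood cells moved too. T and NK cell markers summed to 96.9 to 515 TPM in BALB/cJ grafts, against 0.768 to 1.14 TPM in controls, and to 420 to 516 TPM in C57BL/6J grafts, against 4.63 to 14.4 TPM in controls, with 7 of 8 and 8 of 8 called higher. B and plasma cell markers were at 58.8 to 104 and 122 to 261 TPM in these grafts, against 15.4 to 16.7 and 17.7 to 27.9 TPM in controls, and 5 of 6 were called in each of the 2 donors. The Kupffer markers were at 15520 to 16871 TPM in BALB/cJ grafts and 11922 to 13384 TPM in C57BL/6J grafts. By the methods, BALB/cJ grafts were gated as negative for CD146 and positive for the macrophage markers F4/80 and CD11b. The part of lymphoid cells in the members' change was not tested.

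After 30 weeks on the AMLN diet, C57BL/6J Kupffer cells had higher levels of early and late members alike, and neither A/J nor BALB/cJ had a member called. These comparisons use the same controls as the NSG ones. In C57BL/6J 24 members were higher and 1 lower (12.5% and 7.72% of all genes; median log2FC 1.18 against 0.04). By role the higher ones were 5 of 8 licensing genes, 2 of 5 precursor and clamp genes, 6 of 7 mitotic cyclins and kinases, 4 of 5 checkpoint, anaphase and passenger genes, 5 of 6 spindle genes and 0 of 3 centromere genes. Mcm5 had 22.6, 15.9, 26.9 and 19.9 TPM in AMLN-fed C57BL/6J mice, against 3.52 and 3.25 TPM in controls (2.85 ± 0.24 SE, adjusted p = 4.4e-05). Cdc20 had 6.68, 6.67, 6.80 and 5.69 TPM, against 1.51 and 1.83 TPM (2.16 ± 0.22 SE, adjusted p = 5.2e-05), and Ccne1 had 3.21, 2.09, 2.57 and 2.58 TPM, against 0.276 and 0.397 TPM (3.15 ± 0.39 SE, adjusted p = 0.00015). The fed and control libraries did not overlap for any of these 3 genes.

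Mcm2 (1.95), Birc5 (1.87), Mcm6 (1.80), Ccnb1 (1.70), the spindle assembly factor gene Tpx2 (1.69), Top2a (1.54), Rrm2 (1.43) and Pcna (1.14) were also higher in AMLN-fed C57BL/6J mice. Top2a had 14.3, 14.8, 19.3 and 13.6 TPM there, against 6.34 and 5.96 TPM in controls, and Pcna had 55.8, 53.7, 63.0 and 57.6 TPM, against 32.4 and 27.7 TPM. Mki67 moved less, at 12.3, 9.85, 14.7 and 10.3 TPM against 9.11 and 8.61 TPM, and stayed under the fold limit (0.61, adjusted p = 0.013), as did Cdk1 (0.77). Stmn1 (0.42) and Hmgb2 (-0.22) were uncalled. Ccne2 was the lower member, at 0.921, 0.63, 0.910 and 0.754 TPM against 2.25 and 1.69 TPM (-1.09 ± 0.30 SE, adjusted p = 0.012), a call lost without control replicate 1 or AMLN replicate 2; Ccnb1 lost its call without control replicate 1. Kif23 had 9.97, 14.5, 12.3 and 8.51 TPM, against 23.4 and 24.6 TPM, under the fold limit (-0.88). Fitting all inbred Kupffer libraries together left 14 calls. Other S-phase genes (18 of 32) and mitosis genes (30 of 49) were higher as well, with Uhrf1 at 2.92 and E2f2 at 3.35, and the CDK inhibitor gene Cdkn1a was higher by 2.64.

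In A/J 0 members were called higher or lower (0.548% and 0.111% of all genes; median log2FC 0.56), and in BALB/cJ 0 (8% and 0.209%; -0.07). In each of these strains edgeR gave 2 members an unadjusted p under 0.05, and DESeq2 called 0. Mcm5 had 26.4, 7.29, 4.93 and 6.00 TPM in AMLN-fed A/J mice, against 2.52 and 4.20 TPM in controls (1.97 ± 0.86 SE, adjusted p = 0.34), so that the fed libraries lay above the controls and replicate 1 far above the others. Mki67 had 8.96, 4.36, 11 and 13.1 TPM in AMLN-fed A/J mice, against 5.72 and 11.6 TPM in controls, and 1.47, 4.92 and 5.15 TPM in AMLN-fed BALB/cJ mice, against 3.20 and 4.43 TPM. The largest log2FC in BALB/cJ was that of Ccne1, at 0.629, 0.549 and 1.20 TPM against 0.265 and 0.327 TPM (1.29 ± 0.66 SE, adjusted p = 0.36). The strain by diet interaction called 0 members (2.74% of all genes; 12 members had an unadjusted p under 0.05, and DESeq2 called 2), so a different response between strains was not shown. The BALB/cJ minus C57BL/6J difference was -2.32 for Mcm5 and -2.18 for Cdc20 (adjusted p = 0.128 for the 3 strains). Without A/J AMLN replicate 1, 4 members were called, and without replicate 3, 1. The Kupffer markers summed to 9153 to 12012 TPM in AMLN-fed C57BL/6J mice, against 14472 to 15000 TPM in controls, and T and NK markers to 22.8 to 74.7 TPM, against 4.63 to 14.4 TPM, with 7 of 8 called higher. Markers of granulocytes and their precursors (Mpo, Elane, Prtn3, Ctsg, Camp, Ltf, Ngp, Chil3, S100a8, S100a9) were summed as 1 list, which does not tell precursors from mature cells. They were at 85.2 to 177.5 TPM in fed A/J mice, 24.7 to 218.5 TPM in fed BALB/cJ mice and 16.9 to 32.6 TPM in fed C57BL/6J mice, against 2.09 to 8.67 TPM in the inbred controls. The part of these cells was not tested.

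After 2 h of LPS, Mki67 was the 1 member called higher in each genotype, and the members called lower ranged from 6 of 37 in BALB/cJ, a share near that of all genes, to 23 of 40 in CB6F1. These comparisons, too, share the inbred controls with those above. In BALB/cJ 1 of 37 tested members was higher and 6 lower (15.7% and 16.6% of all genes), in C57BL/6J 1 was higher and 12 lower of 37 (18% and 19.2%), and in CB6F1 1 was higher and 23 lower of 40 (18.8% and 22.6%). The members' median log2FC was -0.65, -0.88 and -1.15, against -0.04, -0.04 and -0.07 for all genes. Scaling moved these values: with library totals alone the median of all genes was -0.59, -0.69 and -0.91, and 14, 23 and 32 members were lower with 1 higher in each, so TPM ratios below are lower than the log2FC beside them.

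Mki67 had 19 and 21.9 TPM in LPS-treated BALB/cJ mice, against 3.20 and 4.43 TPM in controls (log2FC 2.97 ± 0.20 SE, adjusted p = 2.4e-05), and 52.6 and 38.7 TPM in LPS-treated C57BL/6J mice, against 9.11 and 8.61 TPM (3.01 ± 0.18 SE, adjusted p = 0.00023). In CB6F1 it had 34.4, 20.2, 37.6, 40.7 and 26.8 TPM after LPS, against 7.98, 7.46, 7.17 and 7.51 TPM (2.97 ± 0.16 SE, adjusted p = 3.4e-09). Every LPS library lay above every control. Top2a, which often accompanies it, was uncalled in all 3 (-0.86, -0.23 and -0.85).

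Kif23 had the lowest log2FC of the members in C57BL/6J and CB6F1, with 1.10 and 0.637 TPM in LPS-treated C57BL/6J mice, against 23.4 and 24.6 TPM in controls (-4.12 ± 0.26 SE, adjusted p = 0.00026), and 0.087, 0.1, 0.595, 0.412 and 0.328 TPM in LPS-treated CB6F1 mice, against 22.1, 16, 21.9 and 20.1 TPM (-5.10 ± 0.50 SE, adjusted p = 2.8e-06). In BALB/cJ it had 0.210 and 3.44 TPM after LPS, against 10.6 and 12.1 TPM, and was uncalled (-2.50, adjusted p = 0.13). Mcm7 had 0.560 and 1.62 TPM in LPS-treated BALB/cJ, 2.29 and 1.39 TPM in C57BL/6J and 0.921, 0.306, 1.41, 1.32 and 1.08 TPM in CB6F1 mice, against 7.06 and 6.38, 11.3 and 7.76, and 10.3, 11, 10.9 and 10.8 TPM in controls of the same genotypes (-2.33, -1.71 and -2.55). Aurkb was called lower in all 3 genotypes (-2.57, -2.19 and -3.0), and so were Cdk1 (-1.73, -2.07 and -1.60), Cenpa (-1.56, -1.91 and -1.71), Mcm2 (-1.32, -1.65 and -2.0) and Rrm1 (-1.23, -1.47 and -1.68). Rrm2 was called in C57BL/6J (-1.78) and CB6F1 (-2.36). In CB6F1 Cdc20 (-3.07), Bub1b (-2.82), Plk1 (-2.68), Kif11 (-2.63) and Ccnb1 (-2.36, lost without control replicate 1 or 4) were lower too. Pcna was past the p threshold and under the fold limit in each, at 0.66, 0.80 and 0.93, while in CB6F1 its TPM overlapped, at 42.4, 55.6, 50.9, 52.8 and 54.4 TPM after LPS against 54.3, 49.8, 49.2 and 49.4 TPM in controls. Mcm5 (-0.07, -0.68 and -0.84) and Hmgb2 (0.33, -1.52 and -0.10) were uncalled in all 3, while Ccne1 and Stmn1 were tested in CB6F1 alone (-0.61 and 0.45, uncalled).

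**Figure D4:**
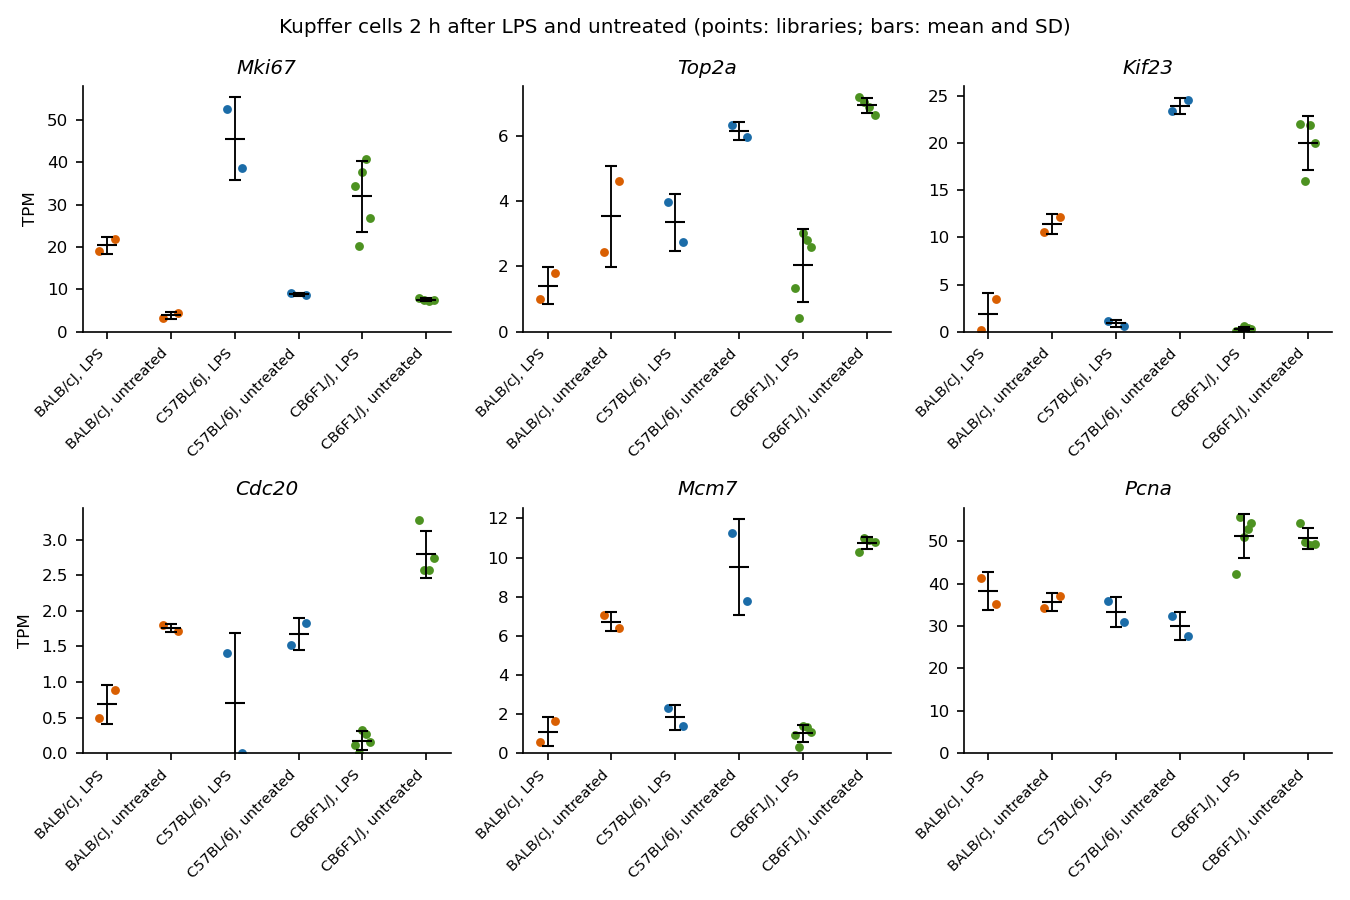
TPM of Mki67, Top2a, Kif23, Cdc20, Mcm7 and Pcna in Kupffer cells 2 h after LPS and in untreated controls of BALB/cJ, C57BL/6J and CB6F1; points are libraries, bars give the mean and SD, and axes start at 0. Mki67 is at 19 to 52.6 TPM after LPS and 3.20 to 9.11 TPM in controls, while Kif23 is at 0.087 to 3.44 TPM after LPS and 10.6 to 24.6 TPM in controls. CB6F1 values come from a separately normalized table.

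With 2 libraries a group, several of these calls rested on 1 library. In BALB/cJ Aurkb lost its call without control replicate 2 and Cdk1 without control replicate 2 or LPS replicate 1, and 18 members were called without LPS replicate 2. In C57BL/6J 5 were called without control replicate 1 or 2, where Cdk1, Rrm2, Cenpf, Aurkb and Bub1b were lost, and 20 without LPS replicate 1. The same markers of granulocytes and their precursors summed to 39.1 to 49.2, 79 to 116 and 58.3 to 181 TPM in LPS-treated BALB/cJ, C57BL/6J and CB6F1 mice, against 2.1 to 8.67, 2.09 to 5.0 and 2.36 to 3.95 TPM in controls. Platelet markers summed to 329 to 461, 92.4 to 119 and 240 to 581 TPM in the same order, against 124 to 193, 23.7 to 51.8 and 47.7 to 81.5 TPM; their part was not tested. The CDK inhibitor gene Cdkn1a was higher after LPS in all 3 (3.83, 4.27 and 4.07), Ccnd2 was higher (3.46, 3.39 and 3.89), and the phosphatase gene Cdc25b, which activates CDK1, was lower (-3.99, -3.51 and -3.98).

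In BMDMs 2 h of KLA moved few members beyond the fold limit. Without that limit 28 (A/J), 15 (BALB/cJ), 19 (C57BL/6J) and 16 (CB6F1) of 40 members passed the p threshold. A/J had 1 member higher and 1 lower (8.42% and 8.71% of all genes), as had BALB/cJ (9.41% and 9.76%) and CB6F1 (8.99% and 8.75%), and C57BL/6J had 1 higher and 2 lower (10.4% and 11.3%). The members' median log2FC was -0.12 (A/J), -0.09 (BALB/cJ), 0.07 (C57BL/6J) and -0.15 (CB6F1). Scaling moved these values too. With library totals alone they were -0.44, -0.44, -0.24 and -0.52, against -0.34, -0.38, -0.34 and -0.38 for all genes. The higher member was Hmgb2 in all 4 genotypes. It had 29.7 and 24.2 TPM in KLA-treated A/J (log2FC 1.11), 32.6 and 36.2 TPM in BALB/cJ (1.64), 40.8 and 39.5 TPM in C57BL/6J (1.84) and 34.6 and 30.0 TPM in CB6F1 BMDMs (1.20), against 16.5 and 14.9, 14.3 and 13.6, 12.1 and 15.5, and 19.7 and 15.5 TPM with PBS. The A/J call was lost without KLA replicate 1 (0.96), and with library totals alone the A/J and CB6F1 values were 0.79 and 0.84. Cdc6 was lower in all 4 (A/J -1.09, BALB/cJ -1.35, C57BL/6J -1.20, CB6F1 -1.84 on the log2 scale), in C57BL/6J not without PBS replicate 2 (-0.92) or KLA replicate 1 (-0.97).

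Cdt1 was the 1 member of 40 called for a response to KLA that differed between strains, a share near that of all genes. It had 55.4 and 59.1 TPM in KLA-treated A/J, 21.8 and 30.0 TPM in BALB/cJ and 18.1 and 18.8 TPM in C57BL/6J BMDMs, against 82 and 90.2, 45.5 and 49.2, and 58.1 and 60.4 TPM with PBS. Its log2FC was -0.26, -0.53 and -1.38, of which the last was called, and the strain by treatment interaction was called for it alone among the members (2.35% of all genes; adjusted p = 0.00039), with an A/J minus C57BL/6J difference of 1.13 ± 0.15 SE. In the main fit Mki67 stayed within 0.10 of no change in the 4 genotypes (-0.10, 0.02, -0.07 and 0.05). With library totals alone it was -0.34 in BALB/cJ and -0.32 in CB6F1. Its mean TPM was lower with KLA in all 4, at 160, 128, 163 and 140 TPM against 216, 160, 211 and 171 TPM with PBS. Cdkn1a was higher with KLA in all 4 (2.15, 3.42, 2.86 and 2.82), and the replication licensing regulator gene Dtl was lower (-1.31, -1.67, -1.84 and -2.02).

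Some member counts are uncertain by construction. Exons of Mcm7, Tk1, Ccne2, Ccna2, Plk1, Cdc20, Ube2c, Kif20a, Prc1 and Nusap1 overlap a gene on the opposite strand, and the sources used here do not say whether counting used strand. Tyms, Pcna, Ccnb1 and Ccnb2 have processed copies elsewhere in the genome, with which reads may be shared.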

How the data were processed

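The authors aligned reads with STAR to mm10 (hybrids to both parental genomes, with MMARGE) and counted exonic reads with HOMER. They deposited whole counts for liver cells, expected counts in steps of 0.5 for BMDMs and hybrids, rounded here, and TPM, in separate tables for hybrids; versions are not given in the sources used here. Levels in the text are deposited TPM. CB6F1 LPS and KLA were tested on perfectly mapped reads averaged over both genomes, and CB6F1 NSG on variant-spanning reads. Of the 20 tables deposited, 10 were not used.

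The 28 comparisons were fitted over all genes with edgeR 4.0.16 in R 4.3.3 (TMM, filterByExpr, robust quasi-likelihood test, Benjamini-Hochberg adjustment). Cell types were compared with strain as a term, strains by an F test and alleles with library as a term. The members and all gene lists were chosen with earlier results of these data known. Named in each comparison were to be 10 fixed members (Mki67, Top2a, Cdk1, Ccnb1, Mcm5, Pcna, Rrm2, Stmn1, Hmgb2, Ccne1), up to 6 called members a direction and up to 4 called genes of each other list, those with the largest change; some are given as counts, and other members were named after their values were seen. Alternatives were DESeq2 1.42.0 as test or scaling, no filter, mean TPM above 8, no fold limit, a replicate block, each library left out and 1 fit per cell type; library totals alone, all mapped CB6F1 reads and a crossed block were added after seeing the data.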

Additional observations from a re-analysis of the deposited data

Results flagged for a closer look

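Of 99 values tested in 9 groups of 4 to 10 libraries, 5 had 1 library far from the others, and chance gives about 1 in 20. A/J LSEC replicate 1 held 3 of them: Top2a was at 2.85 TPM there and 1.03 to 1.24 TPM in the other A/J LSEC libraries, Cdk1 at 4.66 and 1.96 to 2.16 TPM, and Hmgb2 at 1.65 and 0.602 to 0.770 TPM. Mcm5 was at 26.4 TPM in replicate 1 of AMLN-fed A/J Kupffer cells and at 4.93 to 7.29 TPM in the other 3. Pcna was at 54.3 TPM in CB6F1 Kupffer control replicate 1 and at 49.2 to 49.8 TPM in the other 3. Cdt1 was the 1 member called by the strain by KLA interaction test (adjusted p = 0.00039), where 2.35% of all genes were called.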

How the results depend on the processing

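Depth limits the rare members most: in hepatocytes and after LPS many stood under 1 TPM, and groups of 2 libraries give unsteady estimates of spread. The labels pair no animals across groups, and libraries with the same number deviated together by correlations of -0.03 to 0.18 in most comparisons, so a shared number was read as a name only; A/J KLA gave -0.27, and a block with crossed numbers, chosen after seeing the data, called 2 members as without it. With the replicate block by number the count of members called was 8 in place of 5 for strain in Kupffer cells, 2 in place of 0 for A/J AMLN, 31 in place of 11 for BALB/cJ NSG and 3 in place of 5 for CB6F1 NSG, and within 1.5 times of the reported count elsewhere. BMDM against Kupffer cells gave 40 calls without any single library.

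Dropping the fold limit gave 27 members in place of 14 for LSECs, 19 in place of 9 for stellate cells, 39 for strain in BMDMs, 10 for strain in LSECs, 17 for BALB/cJ NSG, 11 for CB6F1 NSG, 1 for donor by NSG, 2 for BALB/cJ against C57BL/6J grafts, 28 for A/J KLA, 15 for BALB/cJ KLA, 19 for C57BL/6J KLA, 16 for CB6F1 KLA, 2 for strain by KLA, and 3 and 7 for alleles in Kupffer cells and BMDMs. Testing only genes with a mean TPM above 8, which tests fewer members, gave 6 for LSECs, 5 for stellate cells, 9 in place of 31 for hepatocytes, 2, 1, 1 and 1 for strain in Kupffer cells, LSECs, stellate cells and hepatocytes, 14 for C57BL/6J AMLN, 12 for C57BL/6J NSG, 3 and 4 for BALB/cJ and C57BL/6J LPS and 1 for BALB/cJ KLA. No filter gave 10 for strain in Kupffer cells. DESeq2's test gave 2 for strain by AMLN and 20 for BALB/cJ NSG. A fit over all inbred libraries of the cell type gave 2 for A/J AMLN, 14 for C57BL/6J AMLN and 8 for C57BL/6J NSG, where Mki67, Top2a, Ccnb1, Stmn1 and Ccne1 were lost. Library totals alone gave 15 for BALB/cJ LPS, 24 for C57BL/6J LPS, 4 for BALB/cJ KLA and 5 for CB6F1 KLA. The BMDM to Kupffer ratio of sums was 13.6 without Pcna, Hmgb2, Stmn1 and the Mcm genes. The cause of these shifts was not tested beyond the construction of each setting.

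With each library left out in turn the counts ran from 3 to 14 for strain in Kupffer cells, 5 to 9 in LSECs and 2 to 4 in hepatocytes, 0 to 4 for strain by AMLN, 8 to 29, 13 to 21 and 3 to 9 for NSG in BALB/cJ, C57BL/6J and CB6F1, 0 to 1 for donor by NSG, 0 to 2 for BALB/cJ against C57BL/6J grafts, 5 to 18 and 5 to 20 for LPS in BALB/cJ and C57BL/6J, 1 to 2 for A/J KLA, 1 to 2 for strain by KLA and 1 to 2 for alleles in Kupffer cells. Of the results compared in these fits, 3534 kept their direction and their side of the threshold, 67 were reversed, 49 stronger and 70 weaker. Under the other settings the numbers were 1715, 25, 35 and 23 in that order.

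The log2 values whose direction turned follow, none of them past the threshold. By the replicate block these were Stmn1 in stellate cells (0.01) and Mki67 (-0.13) and Hmgb2 (-0.24) in A/J AMLN. With library totals alone they were Stmn1 in hepatocytes (-0.56), Pcna (0.01), Stmn1 (0.05) and Hmgb2 (0.04) in BALB/cJ AMLN, Hmgb2 in BALB/cJ LPS (-0.21), Stmn1 in CB6F1 LPS (-0.39), Top2a (-0.02), Mcm5 (-0.10) and Rrm2 (-0.01) in A/J KLA, Mki67 (-0.34), Pcna (-0.12) and Rrm2 (-0.07) in BALB/cJ KLA, Rrm2 (-0.02) and Ccne1 (-0.21) in C57BL/6J KLA, and Mki67 (-0.32), Top2a (-0.20), Cdk1 (-0.11), Ccnb1 (-0.36) and Mcm5 (-0.34) in CB6F1 KLA. The TPM filter gave -0.07 for Mki67 in BALB/cJ KLA, and DESeq2's size factors and test gave 0.00 for Rrm2 and -0.00 for Ccne1 between BMDM alleles. With 1 library left out, A/J AMLN ran from -0.07 to 0.99 for Ccnb1, -0.12 to 0.72 for Mki67 and -0.11 to 1.20 for Stmn1, and BALB/cJ AMLN from -0.81 to 0.37 for Ccnb1, -0.66 to 0.41 for Hmgb2, -0.38 to 0.26 for Mki67, -0.22 to 0.06 for Pcna, -0.53 to 0.47 for Rrm2, -0.51 to 0.55 for Stmn1 and -0.66 to 0.36 for Top2a. BALB/cJ against C57BL/6J grafts ran from -0.76 to 0.20 for Ccnb1, -0.29 to 0.12 for Cdk1, -0.29 to 0.14 for Mcm5, -0.87 to 0.04 for Mki67, -0.77 to 0.19 for Rrm2 and -0.91 to 0.21 for Top2a, and donor by NSG from -1.06 to 0.22 for Ccnb1, -0.41 to 0.62 for Stmn1 and -0.18 to 1.07 for Top2a. Hepatocytes ran from -0.30 to 0.11 for Rrm2 and -0.05 to 0.56 for Stmn1, stellate cells from -0.20 to 0.15 for Stmn1, strain by AMLN from -1.34 to 0.08 for Stmn1, strain by KLA from -0.28 to 0.46 for Rrm2 and strain in hepatocytes from -0.39 to 0.06 for Pcna. BALB/cJ KLA ran from -0.01 to 0.69 for Mcm5, -0.01 to 0.05 for Mki67 and -0.13 to 0.60 for Rrm2, C57BL/6J KLA from -0.11 to 0.37 for Ccne1 and -0.16 to 0.03 for Mki67, and CB6F1 KLA from -0.14 to 0.21 for Ccnb1, -0.10 to 0.14 for Mcm5, -0.02 to 0.15 for Mki67, -0.08 to 0.01 for Pcna and -0.15 to 0.06 for Stmn1. BALB/cJ LPS ran from -0.29 to 0.99 for Hmgb2 and -0.19 to 0.03 for Mcm5, CB6F1 LPS from -0.47 to 0.10 for Hmgb2, and BMDM alleles from -0.07 to 0.06 for Ccne1 and -0.03 to 0.03 for Rrm2.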
